A study of Homo sapiens with 8 samples.

Results

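The chemokine receptors and CD surface antigens of the screen were taken by gene symbol: every sgRNA row whose gene is a CCR or CXCR receptor, a numbered CD antigen, an FCGR receptor, *CTLA4*, or a gene starting with PDCD1. This gave 273 of the 10429 sgRNAs in the library (2.62%), 7 against each of 39 genes among 1420 targeted genes. The study asked which genes change the level of PRMT5, the main symmetric arginine methyltransferase, in COV362 cells, an established line of high-grade serous ovarian cancer. The cells in both groups were chemo-resistant (Pt-resistant), carried the genotype label WT, expressed Cas9 and received a druggable-genome sgRNA library. After 2 weeks they were stained for PRMT5 and sorted into the 20% with the most PRMT5 (PRMT5hi, 4 libraries) and the 20% with the least (PRMT5lo, 4 libraries). The 4 replicate cultures were split from the same transduced cells of a single line, so the errors given here cover at most the spread between cultures. Nothing in the assay measured whether COV362 cells express a given antigen.

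Chemokine receptors are G protein–coupled receptors that steer migrating cells along gradients of small secreted ligands, and *CXCR4* is the family member best known on carcinoma cells, including those of the ovary. CD numbers name surface molecules by the antibodies that recognize them, and most of those in the library mark T cells, B cells or myeloid cells. Others are found widely on epithelial or tumor cells: CD44 binds hyaluronan, CD55 shields cells from complement, and CD274 (PD-L1) and CD276 (B7-H3) are checkpoint ligands that restrain T cells.

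Each sgRNA was followed by its abundance in read counts scaled to library size (CPM), the authors' mean over the 4 libraries of a population, with a standard error (SE) from the authors' variance over the libraries. Values of single libraries were not analysed here. The log2 ratio was taken as CPM + 1 in PRMT5lo over CPM + 1 in PRMT5hi, so positive values mean higher abundance in cells with little PRMT5. Which column of the table holds which population follows the study's plot legends, because the column names give only a and b. The sentence on significance in the study's methods ties positive ratios to PRMT5hi instead, and under that reading every direction given here would turn. The smallest variances give a depth of 16166859 reads for PRMT5hi and 19117396 for PRMT5lo, which is 388 and 458 reads for an average sgRNA in each library. The study's methods mention no molecular identifiers on the PCR products, so this depth was taken to cover counting error only. For each gene the ratios of its sgRNAs were averaged and the one-sided p-values combined by Fisher's method, as in the CB2 package, with Benjamini-Hochberg adjustment over all 1420 genes. Calls required a mean beyond 0.25 and, in that direction, a one-sided p below 0.01. These limits follow the study's plot legend. The study's methods give a stricter p limit of 0.001 for PRMT5lo, and at 0.001 the count of members called toward PRMT5lo was 0.

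*CD55* was the only called gene among the 39, toward PRMT5lo, and no member was called toward PRMT5hi. In the whole library 0.704% of genes were called toward PRMT5lo and 0.845% toward PRMT5hi, so counts of 1 and 0 among 39 genes are close to the background. With the p limit and the mean required only to lie on the same side of 0, *CD55* and *CXCR5* passed toward PRMT5lo, where 2.82% of all genes did. *CD274* and *PDCD1* passed in this way toward PRMT5hi, where 2.61% did. Past the limit on the mean alone were *CD55* (2.04% of all genes above 0.25) and *CCR4* (2.54% below -0.25). After adjustment no member was below 0.05 by Fisher's method, and the smallest values were 0.232 toward PRMT5lo (*CXCR5*) and 0.0710 toward PRMT5hi (*PDCD1*). The median of the 39 gene means was 0.015 (SD 0.13 over genes), against -0.0033 (SD 0.12) over all genes, and 22 means lay above 0 and 17 below. In 21 of the 39 genes the mean was within 0.1 of 0.

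Single sgRNAs gave a similar picture. One-sided p-values under 0.05 were reached by 13 of the 273 sgRNAs toward PRMT5lo (4.76%) and by 19 toward PRMT5hi (6.96%), against 5.66% and 6.00% of all 9929 targeting sgRNAs and 9% and 6.6% of the 500 control sgRNAs. With two-sided p-values adjusted over all sgRNAs, 0 of the 273 passed 0.05 in CB2's beta-binomial test, while 16 (5.86%) had an unadjusted two-sided p under 0.05, against 6.53% of targeting sgRNAs. Over the whole library the adjusted limit was passed by 5 sgRNAs (0.0479%). For none of the 39 genes did all 7 sgRNAs lie on the same side of 0, for 5 genes 6 of 7 did, and for 18 genes the split was 4 against 3. Of the 1413 genes with 7 sgRNAs, 2.12% had all 7 on one side, 11.3% had 6 and 55.1% were split 4 against 3.

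*CD55* encodes decay-accelerating factor, a lipid-anchored protein that dismantles complement convertases on the cell's own surface. Its locus on chromosome 1 (GRCh38) spans 207321678 to 207360966. Together its 7 sgRNAs had a mean log2 ratio of 0.28, a 1.21-fold higher abundance in PRMT5lo cells, with an SD of 0.25 over sgRNAs and an SE of 0.10 from the library variances. The combined one-sided p was 0.00789 by Fisher's method, with an adjusted p of 0.322, and the mean ranked 16 from the top among the 1420 genes. On the side of PRMT5lo stood 6 of its 7 sgRNAs. sgRNA 4 was the most abundant, with 197 CPM (SE 9.34) in PRMT5hi and 251 CPM (SE 14.0) in PRMT5lo, a log2 ratio of 0.35. sgRNA 1 stood at 52.0 CPM (SE 7.47) in PRMT5hi and 73.0 CPM (SE 4.83) in PRMT5lo. These were the only *CD55* sgRNAs with a one-sided p under 0.05, at 0.0112 and 0.0320 in CB2's beta-binomial test. The largest ratio, 0.61, belonged to sgRNA 6, which was rare at 16.5 CPM (SE 2.77) in PRMT5hi and 25.7 CPM (SE 8.50) in PRMT5lo. sgRNA 2 stood at 60.4 and 78.6 CPM in PRMT5hi and PRMT5lo, sgRNA 5 at 123 and 142 CPM, and sgRNA 7 at 109 and 116 CPM. sgRNA 3 went the other way, with 96.8 CPM (SE 10.8) in PRMT5hi and 87.7 CPM (SE 7.28) in PRMT5lo. The positive ratios of *CD55* were thus spread over sgRNAs of different abundance, and the ratio of sgRNA 4 was the largest relative to its own SE (0.10). The call nonetheless depended on individual sgRNAs: it was lost without sgRNA 1 (mean 0.25, p = 0.0276), sgRNA 2 (mean 0.26, p = 0.0137), sgRNA 4 (mean 0.27, p = 0.0517) or sgRNA 6 (mean 0.23, p = 0.00912), all by Fisher's method, and it was also lost with CPM + 10 in place of CPM + 1 (mean 0.24).

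The 9 chemokine receptors held both the lowest gene mean of the 39 (*CCR4*) and the second highest (*CXCR5*), and none was called. Their median was 0.10, with 6 means above 0 and 3 below, and 5 of 63 sgRNAs (7.94%) had a one-sided p under 0.05 toward PRMT5lo and 1 (1.59%) toward PRMT5hi, against 5.66% and 6.00% of all targeting sgRNAs. *CCR4*, a receptor of type 2 helper and regulatory T cells and the target of a therapeutic antibody, had a mean of -0.33 (SD 0.43 over sgRNAs, SE 0.16), a 1.26-fold higher abundance in PRMT5hi. This was the 18th lowest mean of the library, but its combined p was only 0.0726 (adjusted p = 0.611, Fisher's method). The lowest ratios were those of sgRNA 2, 5 and 6, of which sgRNA 2 and 5 were rare. sgRNA 2 had the lowest ratio of all 273, -1.07, with 28.3 CPM (SE 8.23) in PRMT5hi and 12.9 CPM (SE 0.805) in PRMT5lo. sgRNA 5 stood at 18.7 CPM (SE 10.3) and 12.3 CPM (SE 4.74), a ratio of -0.57 with an SE of 0.91. sgRNA 6 stood at 72.3 CPM (SE 10.1) in PRMT5hi and 49.0 CPM (SE 7.97) in PRMT5lo. The more abundant sgRNAs were divided, with a ratio of 0.20 for sgRNA 1 at 135 and 156 CPM and -0.21 for sgRNA 3 at 132 and 114 CPM. Ratios of -0.10 for sgRNA 4 and 0.0075 for sgRNA 7 completed the set. With sgRNA 2 left out the *CCR4* mean was -0.20. With a minimum of 20 CPM per sgRNA it was -0.29 (p = 0.0692, Fisher's method).

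*CXCR5* guides B cells and follicular helper T cells into lymphoid follicles. Its mean was 0.21 (SD 0.42, SE 0.14), and its combined p of 0.00306 (adjusted p = 0.232, Fisher's method) ranked 17 of 1420 toward PRMT5lo. The p came mainly from sgRNA 7, at 88.9 CPM (SE 2.34) in PRMT5hi and 112 CPM (SE 2.40) in PRMT5lo, with a ratio of 0.33 and a two-sided p of 0.000558 (adjusted p = 0.136, CB2's beta-binomial test). In both populations the variance of sgRNA 7 sat at the lower bound set by read counting. Without it the combined p of the gene was 0.171, and with each variance taken from the trend over sgRNAs of like abundance it was 0.0752, both short of the p limit by Fisher's method. The mean came from other sgRNAs, namely sgRNA 5 at 12.1 and 23.3 CPM (ratio 0.89) and sgRNA 6 at 32.0 and 48.4 CPM (ratio 0.58). sgRNA 1 had a ratio of -0.35, and the rest lay between -0.037 and 0.055.

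*CXCR1* and *CXCR2*, the neutrophil receptors of interleukin-8, lie 25.6 kb apart on chromosome 2 and are close paralogs, and cutting of one by sgRNAs against the other was not tested. *CXCR1* had a mean of 0.15 (SD 0.37). Above 0 were 5 of its 7 sgRNAs, with a combined p of 0.0330 toward PRMT5lo (adjusted p = 0.508, Fisher's method). Its sgRNA 4 stood at 74.3 CPM (SE 8.18) in PRMT5hi and 105 CPM (SE 2.32) in PRMT5lo, and sgRNA 6 at 57.5 CPM (SE 8.98) and 86.8 CPM (SE 8.18). Against them stood sgRNA 7, at 69.6 CPM and 53.6 CPM. *CXCR2* had a mean of 0.10 (SD 0.33), and 0.66 for sgRNA 1 was its largest ratio. *CCR2*, a receptor of monocytes, had a mean of 0.14 (SD 0.29) and was not called. *CCR1* (mean 0.13) and *CCR9* (mean 0.058) are in the same region of chromosome 3. *CCR9*, the receptor of gut-homing lymphocytes, had the smallest SD over sgRNAs of all 39 genes, 0.092, with 6 of 7 sgRNAs above 0.

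*CXCR4*, the receptor of CXCL12, had a mean of -0.031 (SD 0.12, SE 0.099). Its sgRNAs ran from 51.2 to 209 CPM in PRMT5hi, and their ratios from -0.13 to 0.20. sgRNA 1, at 143 CPM (SE 2.96) in PRMT5hi and 131 CPM (SE 2.58) in PRMT5lo, was the only one with a one-sided p under 0.05. For this receptor the sgRNAs differed little among themselves, and the mean lay within its error of 0.

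The 11 costimulatory and checkpoint genes had a median of -0.026, with 6 means below 0 and 5 above, and none was called. Toward PRMT5hi 12 of their 77 sgRNAs (15.6%) had a one-sided p under 0.05, spread over 7 genes, against 6.00% of all targeting sgRNAs, and toward PRMT5lo 2 (2.60%) did. No test was run on this share, since the class was drawn with earlier results of these data known. *CD274*, the PD-L1 ligand, held 4 of the 12. *CD28* and *PDCD1* held 2 each, and *CTLA4*, *CD40*, *CD70* and *CD200* held 1 each. Those of the 12 at the lower bound of variance in at least 1 population included 3 of *CD274*, both of *PDCD1* and that of *CD200*.

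*CD274* lies on chromosome 9 from 5450542 to 5470554. Its mean was -0.20 (SD 0.31, SE 0.073), a 1.15-fold higher abundance in PRMT5hi, with a combined p of 0.00635 (adjusted p = 0.289, Fisher's method). It thus passed the p limit but not the limit on the mean. sgRNA 3 stood at 228 CPM (SE 16.3) in PRMT5hi and 189 CPM (SE 3.14) in PRMT5lo. sgRNA 2 stood at 77.4 CPM (SE 8.99) and 50.8 CPM (SE 1.62), sgRNA 5 at 99.4 CPM (SE 5.73) and 83.0 CPM (SE 2.07), and sgRNA 7 at 61.7 CPM (SE 6.39) and 42.1 CPM (SE 7.01). These were the 4 *CD274* sgRNAs with a one-sided p under 0.05. In PRMT5lo the variances of sgRNA 2, 3 and 5 sat at the lower bound set by read counting. Of the others, sgRNA 1 had a ratio of -0.033 and sgRNA 4 of 0.0072, both close to 0. sgRNA 6 went the other way, at 97.2 CPM (SE 15.7) and 118 CPM (SE 10.2), a ratio of 0.28. With the median over sgRNAs in place of the mean *CD274* was called (-0.26), as it was without sgRNA 6 (mean -0.28, p = 0.00257, Fisher's method), and it missed the p limit without sgRNA 2, 3, 5 or 7 (p up to 0.0274). *PDCD1LG2*, the other ligand of PD-1, begins 40.0 kb beyond *CD274* and had a mean of 0.032 (SD 0.15, SE 0.078) and a combined p of 0.758 toward PRMT5hi.

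*PDCD1*, the PD-1 receptor of activated T cells, had the smallest combined p of the 39 genes, 0.000200 toward PRMT5hi (rank 4 of 1420, adjusted p = 0.0710, Fisher's method), beside a mean of only -0.026 (SD 0.25, SE 0.082). The p rested on sgRNA 1, at 235 CPM (SE 3.80) in PRMT5hi and 195 CPM (SE 3.16) in PRMT5lo, and sgRNA 2, at 156 CPM (SE 3.09) and 131 CPM (SE 2.62). Both were at the smallest allowed variance in both populations, and their ratios were -0.27 and -0.24. sgRNA 1 had the smallest two-sided p of the 273 sgRNAs, 0.000175 (adjusted p = 0.0793, CB2's beta-binomial test). Of the other five, 3 had positive ratios, up to 0.44 for sgRNA 7 at 33.3 and 45.5 CPM. Without sgRNA 1 the mean was 0.014 and the combined p toward PRMT5hi 0.0377, and without sgRNA 2 they were 0.0099 and 0.0103. With variances from the abundance trend the combined p of *PDCD1* was 0.212 by Fisher's method, so it passed the limit only with the sgRNAs' own variances.

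*CD28* and *CTLA4*, the activating and the inhibitory receptor of CD80 and CD86, are neighbors on chromosome 2, 129 kb apart. *CD28* had a mean of -0.19 (SD 0.26). Below 0 were 6 of its 7 sgRNAs, with a combined p of 0.0476 (adjusted p = 0.520, Fisher's method). Its lowest ratio, -0.70, came from sgRNA 3 at 83.5 CPM (SE 11.8) in PRMT5hi and 50.9 CPM (SE 3.26) in PRMT5lo, and sgRNA 6 stood at 264 CPM (SE 11.8) and 223 CPM (SE 12.2). *CTLA4* had a mean of -0.11 (SD 0.27). Their ligands *CD80* and *CD86* had means of 0.015 and -0.051. *CD40*, which receives T cell help on antigen-presenting cells, had a mean of -0.11 with widely split sgRNAs, from -0.72 for sgRNA 4 to 0.56 for sgRNA 2. *CD70*, the ligand of CD27, had a mean of 0.082, although its sgRNA 1 stood at 101 CPM (SE 7.18) in PRMT5hi and 68.4 CPM (SE 6.31) in PRMT5lo. *CD276* (mean 0.014) and *CD200* (mean 0.036) completed the class.

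The 5 T cell antigens lay closest together of the classes, with means from -0.11 to 0.073 and a median of 0.023. *CD4*, the coreceptor for MHC class II, had a mean of -0.11 (SD 0.16). *CD3E*, a signaling chain of the T cell receptor, had a mean of 0.023 (SD 0.16), the adhesion receptor *CD2* 0.019 (SD 0.27), and the related scavenger-type receptors *CD5* and *CD6* 0.024 (SD 0.40) and 0.073 (SD 0.15). Of their 35 sgRNAs 1 (2.86%) reached a one-sided p under 0.05 toward PRMT5lo, against *CD2*, and 0 did toward PRMT5hi. The shares of all targeting sgRNAs were 5.66% and 6.00%. *CD5* had sgRNAs at both ends, sgRNA 5 with 61.5 CPM (SE 12.5) in PRMT5hi and 35.8 CPM (SE 8.27) in PRMT5lo and sgRNA 3 with 32.0 CPM (SE 4.48) and 47.3 CPM (SE 8.79).

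Among the 5 B cell and plasma cell antigens, 24 of 35 sgRNAs had a ratio below 0, against 4987 of the 9929 targeting sgRNAs, and the median of the gene means was -0.059. No sgRNA had a one-sided p under 0.05 toward PRMT5lo and 2 (5.71%) did toward PRMT5hi, where the shares of all targeting sgRNAs were 5.66% and 6.00%. *CD22*, an inhibitory sialic acid-binding receptor of B cells, was the lowest, with a mean of -0.25 (SD 0.20, SE 0.088), just inside the limit on the mean. Its combined p was 0.0188 (adjusted p = 0.417, Fisher's method), and 6 of its 7 sgRNAs were below 0, with 0.0043 for the remaining one. sgRNA 6, at 113 CPM (SE 11.7) in PRMT5hi and 73.0 CPM (SE 1.92) in PRMT5lo, had the lowest ratio of the class, -0.62. *CD37*, a tetraspanin, had the most abundant sgRNAs of the 39 genes, with a mean of 162 CPM in PRMT5hi and 152 CPM in PRMT5lo. Its mean ratio was -0.059 (SD 0.098), and its sgRNA 2, at 334 CPM (SE 4.51) and 284 CPM (SE 7.06), had a two-sided p of 0.00289 (adjusted p = 0.266, CB2's beta-binomial test). *CD38*, an NAD-consuming ectoenzyme, had a mean of -0.059 (SD 0.25). *CD79B*, a signaling chain of the B cell receptor, had a mean of 0.0053 (SD 0.22).

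The myeloid antigens, Fc receptors and invariant chain had the widest spread among sgRNAs, with an SD of 0.35 over 35 sgRNAs, against 0.29 over all targeting sgRNAs. *CD33*, a sialic acid-binding receptor of myeloid cells, had the largest SD over sgRNAs of the 39 genes, 0.51, about a mean of 0.13. Its sgRNA 3 had the highest ratio of all 273, 1.09, from 12.1 CPM (SE 4.83) in PRMT5hi and 26.9 CPM (SE 3.69) in PRMT5lo. Its sgRNA 5 had the lowest ratio of the gene, -0.56, from 172 CPM (SE 14.6) and 117 CPM (SE 5.48), and without sgRNA 3 the mean was -0.032. *CD74*, the invariant chain that escorts MHC class II, was divided in the same way. sgRNA 5 stood at 24.5 CPM (SE 3.13) in PRMT5hi and 43.4 CPM (SE 2.72) in PRMT5lo, with a two-sided p of 0.00397 (adjusted p = 0.298, CB2's beta-binomial test). sgRNA 7 stood at 63.8 CPM (SE 3.32) and 49.6 CPM (SE 3.98), so that sgRNAs against the same gene had one-sided p-values under 0.05 in opposite directions, and the gene mean was 0.091 (SD 0.38). *CD14*, the lipopolysaccharide coreceptor, was more even, with a mean of 0.12 (SD 0.19), 5 of 7 sgRNAs between 0.20 and 0.25, and a combined p of 0.0302 (adjusted p = 0.508, Fisher's method). The Fc gamma receptors *FCGR1A* and *FCGR2B*, which bind IgG and have near-identical relatives in the genome, had means of -0.11 (SD 0.27) and -0.10 (SD 0.34), and cutting at those relatives was not tested.

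Beside *CD55*, the class of adhesion, complement regulation and other surface proteins held *CD44*, *CD248* and *CD52*, none of them called. *CD44* had a mean of -0.17 (SD 0.18, SE 0.13) and a combined p of 0.196 toward PRMT5hi (adjusted p = 0.795, Fisher's method). Its sgRNA 1 was abundant, at 186 CPM (SE 23.7) in PRMT5hi and 163 CPM (SE 2.91) in PRMT5lo, while the other six stood between 31.1 and 76.3 CPM in PRMT5hi. *CD248*, or endosialin, a protein of stromal cells and pericytes, had a mean of -0.11 (SD 0.27), and sgRNA 3 had its lowest ratio, -0.53, from 42.4 CPM (SE 2.51) and 29.1 CPM (SE 4.35). *CD52*, a short lipid-anchored glycopeptide of lymphocytes, had a mean of 0.089 (SD 0.22).

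The size of a ratio went with the abundance of the sgRNA. When all sgRNAs were divided by mean log2(CPM + 1) into low, middle and high groups of equal size, the SD of the ratio over the members was 0.40 in the low group (84 sgRNAs), 0.23 in the middle (92) and 0.19 in the high group (97). The 500 control sgRNAs had SDs of 0.37, 0.29 and 0.19 in the same groups. Of the 24 members with a ratio beyond 0.5 in either direction, 6 had a two-sided p under 0.05. Single small p-values, which are computed from the variances, went with small variances. Of 32 sgRNAs with a one-sided p under 0.05, 14 (43.8%) were at the smallest allowed variance in at least 1 population, against 83 of all 273 (30.4%). In PRMT5hi 15.0% of the members were at it, against 12.1% of all sgRNAs, and in PRMT5lo 19.4% against 17.6%. In both populations at once 11 members were at it. Among these were sgRNA 1 and 2 of *PDCD1*, sgRNA 7 of *CXCR5*, sgRNA 1 of *CD14* and sgRNA 1 of *CXCR4*. The trend setting took every variance from the abundance trend and also its p-values from the normal in place of the t distribution. These changes were not separated. Together they moved the combined p, by Fisher's method, of the genes that hold these sgRNAs. It went from 0.0302 to 0.148 for *CD14* and from 0.102 to 0.539 for *CXCR4*, beside the values of *PDCD1* and *CXCR5* above. For *CD37* it went from 0.0214 to 0.264 and for *CD274* from 0.00635 to 0.0187, which misses the p limit. The p of *CD55* was 0.00776 with the trend, and those of *CCR4* and *CD22* were smaller with it, at 0.0151 and 0.00569, though neither gene was called.

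In abundance the members resembled the library. Their median sgRNA stood at 90.2 CPM in PRMT5hi and 87.7 CPM in PRMT5lo, against 85.0 and 84.9 CPM over all targeting sgRNAs and 123 CPM over control sgRNAs in both. Gene means ran from 53.0 CPM in PRMT5hi for *FCGR2B* to 162 CPM for *CD37*, and 6 of the 273 sgRNAs (2.20%) averaged under 20 CPM, against 3.38% of all targeting sgRNAs. Abundance in the starting library was not analysed here. The SE of a gene mean from library variances ran from 0.056 (*CD37*) to 0.16 (*CCR4*).

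The 23 partner genes set beside the members act with them but are outside the symbol rule. None was called, where 0.704% of all genes were called toward PRMT5lo and 0.845% toward PRMT5hi. With the mean required only to lie on the same side of 0, 2 of the 23 passed the p limit toward PRMT5lo and 0 toward PRMT5hi. Of all genes 2.82% and 2.61% did. The median of the 23 means was -0.023, with 9 means above 0 and 14 below. Among 4 chemokine ligands, *CXCL8* (interleukin-8, the ligand of CXCR1 and CXCR2) had a mean of 0.20 (SD 0.20) and a combined p of 0.0376, and 6 of its 7 sgRNAs were above 0. *CCL2*, the ligand of CCR2, had a mean of 0.19 (SD 0.33) and a combined p of 0.000306 (adjusted p = 0.0888, Fisher's method), past the p limit but not the limit on the mean. *CCL11* and *CXCL10* had means of 0.033 and -0.046. Of 5 antigen receptor kinases *BTK*, the B cell kinase, also passed the p limit alone (mean 0.16, p = 0.00533, adjusted p = 0.280, Fisher's method), while *SYK* had a mean of -0.12. *HLA-DRB1*, whose product CD74 escorts, had a mean of 0.20 beside -0.023 for *HLA-DRA* and -0.0086 for *HLA-DRB5*, a close relative of *HLA-DRB1*. The complement genes *C5* and *CFD*, on the pathway that CD55 restrains, had means of -0.10 and 0.12. The 9 other lymphocyte antigens, such as *MS4A1* (CD20, mean 0.080) and *PTPRC* (CD45, mean -0.047), had a median of -0.047.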

How the data were processed

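Reads were matched by the authors to the designed sgRNAs and counted, and both populations were compared with CB2. FastQC and hg38 appear in the submitters' processing notes. Tool versions were not stated in what was read here. The deposited CPM values are the authors' means over the 4 libraries of a population. The deposited fraction gives, for each sgRNA, the estimated share of a population's reads, beside its variance. The authors' own log2 ratios, scores and p-values, and their gene table, were not used. From the fractions and variances, CB2's beta-binomial sgRNA test, gene means on the log2(CPM + 1) scale and Fisher's combination were recomputed for the whole table (Python 3.11.15, SciPy 1.17.1). Simulated counts with planted ratios were run through the same steps, and the check covered the recovered gene means, not the p-values. SEs of ratios follow from the variances by error propagation. sgRNA sequences were not used here, so cut sites were not examined. Gene coordinates come from RefSeq (GRCh38.p14), where 39 members matched by symbol.

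The members, their 6 classes and the 5 partner lists were chosen with earlier results of these data known. Named are called members, *CCR4*, *CD55*, *CD274*, *CXCR4*, *PDCD1*, all members of classes of up to 5 genes, and the 2 highest and 2 lowest means of larger classes. Some members are counted but not reported here by name. The other members and sgRNAs described were named after their values were seen, as were the partner genes given. Alternatives were pseudocounts of 5 and 10, a minimum of 20 CPM with at least 3 sgRNAs, and centring on control sgRNAs. Others were the median over sgRNAs, Stouffer's method, variances from a trend over 20 abundance bins, other p limits and leaving out each sgRNA. The trend setting also took p-values from the normal in place of the t distribution.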

Additional observations from a re-analysis of the deposited data

How the results depend on the processing

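No paired analysis was possible because the deposited values are pooled over the libraries of a population, and for the same reason no library could be left out. Among the members the count called toward PRMT5lo, 1, was 0 with a pseudocount of 10, with a p limit of 0.001 and with an adjusted p limit of 0.05. It was also 0 when the call had to hold with each sgRNA left out in turn. The count was 2 at a p limit of 0.01 alone, a setting chosen after seeing the data. That setting still required the mean to lie on the called side of 0. Toward PRMT5hi the count of 0 became 1 with the median over sgRNAs and 2 at the p limit alone. Over all genes the 10 called toward PRMT5lo were 4 with a pseudocount of 10, 2 at 0.001, 0 at the adjusted limit, 40 at the p limit alone and 0 with each sgRNA left out. The 12 called toward PRMT5hi were 7 with the median, 21 with trend variances, 5 at 0.001, 3 at the adjusted limit, 37 at the p limit alone and 2 with each sgRNA left out. The median of the member genes, 0.015, ran from -0.0083 to 0.014 over 5 alternatives.

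The means of 27 members were followed over all settings, and some changed sign. With the median over sgRNAs these were *CD2* (-0.035), *CD38* (0.089), *CD74* (-0.025) and *CD79B* (-0.016). With centring it was *CD79B* (-0.0056), and with a minimum of 20 CPM *CD33* (-0.032, from 0.13). With single sgRNAs left out, the mean crossed 0 for 9 of these 27 genes. It ran from -0.057 to 0.080 for *CD2*, -0.0055 to 0.10 for *CD200* and -0.032 to 0.24 for *CD33*. For *CD38* it ran from -0.097 to 0.0051, for *CD3E* from -0.021 to 0.048 and for *CD5* from -0.064 to 0.16. The ranges were -0.027 to 0.16 for *CD74*, -0.060 to 0.057 for *CD79B* and -0.10 to 0.014 for *PDCD1*. Members outside the 27 crossed 0 as well, among them *CD80* (-0.034 to 0.056), *CD276* (-0.029 to 0.060) and *PDCD1LG2* (-0.011 to 0.059). The causes of these changes of sign were not tested. Gene means had SEs of 0.056 to 0.16 at this depth. With trend variances *PDCD1* (p = 0.212), *CXCR5* (p = 0.0752) and *CD274* (p = 0.0187) missed the p limit by Fisher's method.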
